A study of Homo sapiens with 2 samples.

Results

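The miR-30 family was measured in 2 small RNA libraries from MDA-MB-231-IV2-1 cells, a subline with high metastatic capacity that was isolated by passage of the human triple-negative breast cancer line MDA-MB-231 through mice. The control library came from cells transfected with the siRNA control (N.C) and the knockdown library from cells transfected with the siLOC550643 pool, both for 48 h, with 1 library per condition. The transfections were transient, and the level of LOC550643, the long non-coding RNA that was targeted, was not analysed here. The question of the comparison was which miRNAs differ in level when LOC550643 is depleted. The members were all rows named miR-30a, miR-30b, miR-30c, miR-30c-1, miR-30c-2, miR-30d or miR-30e, of either hairpin arm. The rule covers 11 mature products, of which 10 are listed, all of them in both libraries, among 425 miRNAs listed in either library. Only miR-30b-3p is listed in neither library and was counted as 0. Because the RNA came from whole cultures, fewer cells that hold a miRNA and less of it per cell cannot be told apart.

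A miRNA is cut from a hairpin precursor whose 2 arms give a 5p and a 3p product. Usually one of them is loaded into an Argonaute protein, where bases 2 to 8 from its 5′ end, the seed, pair with target transcripts. The miR-30 hairpins share their 5p seed and are among the abundant miRNAs of many differentiated tissues. The 5p products are known for targets in epithelial-mesenchymal transition and cytoskeletal remodelling, such as SNAI1 and VIM, and are generally described as restraining invasion in breast cancer. The 3p products have other seeds and other predicted targets, and they are usually regarded as the minor strands.

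The mature sequences are given because they show which products act through a common seed and which differ by so few bases that a read could be assigned to either. They were taken from RefSeq (GRCh38.p14), which matched 7 of the 10 listed members. The listed miR-30b-5p, miR-30d-5p and miR-30d-3p were not matched, so how few bases separate them from the others was not examined. Each is written 5′ to 3′ with the seed in capitals.
hsa-miR-30a-5p: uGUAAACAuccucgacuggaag
hsa-miR-30c-5p: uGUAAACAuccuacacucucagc
hsa-miR-30e-5p: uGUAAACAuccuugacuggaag
hsa-miR-30a-3p: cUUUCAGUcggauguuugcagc
hsa-miR-30e-3p: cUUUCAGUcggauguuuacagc
hsa-miR-30c-1-3p: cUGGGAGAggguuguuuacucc
hsa-miR-30c-2-3p: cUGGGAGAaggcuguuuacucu
The 5p products of miR-30a, miR-30c and miR-30e are identical over their first 12 bases. Of the 350 listed miRNAs that were matched to a RefSeq mature sequence, these 3 were the only ones with the seed GUAAACA. The unmatched miR-30b-5p and miR-30d-5p are not part of this count. The 3p products shown fell into 2 seed groups, UUUCAGU for miR-30a-3p and miR-30e-3p and UGGGAGA for miR-30c-1-3p and miR-30c-2-3p. No other listed miRNA with a matched sequence carried either seed, and miR-30d-3p was not matched. Counted from the 5′ end, miR-30e-5p differs from miR-30a-5p by C13U alone and miR-30e-3p from miR-30a-3p by G18A alone. From miR-30c-1-3p to miR-30c-2-3p the changes are G9A, U12C and C22U.

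The 4 hairpins of the matched products are shown with their arms in capitals, since the comparison of arms below turns on them.
MIR30A: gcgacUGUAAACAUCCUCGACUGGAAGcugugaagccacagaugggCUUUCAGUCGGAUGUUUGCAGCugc
MIR30C2: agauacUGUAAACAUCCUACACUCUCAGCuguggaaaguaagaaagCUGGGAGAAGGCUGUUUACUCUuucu
MIR30E: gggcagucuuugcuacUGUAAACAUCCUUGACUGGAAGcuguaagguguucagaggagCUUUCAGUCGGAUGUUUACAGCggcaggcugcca
MIR30C1: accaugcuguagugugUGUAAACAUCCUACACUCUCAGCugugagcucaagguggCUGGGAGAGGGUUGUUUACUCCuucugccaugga
The 5p arm of MIR30C1 and that of MIR30C2 give the identical miR-30c-5p, so reads of miR-30c-5p cannot be divided between the 2 hairpins, whereas their 3p products can be told apart. In GRCh38, MIR30A (chromosome 6, 71403551 to 71403621, minus strand) and MIR30C2 (71376960 to 71377031, minus strand) lie 26519 bases apart. Both are within introns of the overlapping long non-coding RNA genes LINC00472 and AL136164.2. MIR30E (chromosome 1, 40754355 to 40754446, plus strand) and MIR30C1 (40757284 to 40757372, plus strand) lie 2837 bases apart, in introns of NFYC, which encodes a subunit of the transcription factor NF-Y.

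The deposited values are RPM, reads of a mature miRNA scaled to a library of 1000000, and the low values place the depth at about 189034 reads for the control and 491541 for the knockdown. Accordingly, 1 read is worth 5.29 RPM in the former and 2.03 RPM in the latter. Intervals are 95% intervals of the estimated reads (Clopper-Pearson for levels and shares), and they cover counting error only, not the variation between cultures, for which there is no replicate. No test was run, and no difference described here has a replicate check. Here and below, a pair of values gives the control first. The 5 marker miRNAs of mesenchymal-like breast cancer lines summed to 366267 and 310677 RPM, whereas of the 5 epithelial markers only miR-200b-3p and miR-200c-3p were listed, with sums of 10.6 and 8.14 RPM. Of 7 blood cell markers 1 was listed (miR-486-5p, 74.1 and 89.5 RPM), and 3 of 6 markers of other tissues summed to 222 and 163 RPM.

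The miR-30 family made up 8.54% of all miRNA RPM in the control library (85427 RPM, interval 84173 to 86698) and 8.09% in the knockdown library (80916 RPM, interval 80156 to 81683). A single product made up most of it. hsa-miR-30a-5p had 67339 RPM in the control (interval 66211 to 68476) and 66412 RPM after knockdown (65717 to 67111), and it ranked 5 in both. Its neighbour above was let-7i-5p in both libraries (84599 and 82910 RPM), and its neighbour below was miR-151a-3p in the control library (36154 RPM) and miR-143-3p in the knockdown library (56417 RPM). The intervals of miR-30a-5p in the 2 libraries overlapped, and they did not reach the value of any neighbour.

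The other 5p products were far below miR-30a-5p. The next, miR-30d-5p, had 12627 RPM in the control (interval 12129 to 13141) and 8556 RPM after knockdown (8301 to 8818). For miR-30c-5p the levels were 1254 RPM (1099 to 1424) and 771 RPM (695 to 853). For miR-30e-5p they were 462 RPM (369 to 568) and 339 RPM (290 to 395). The least abundant 5p product, miR-30b-5p, had 217 RPM (156 to 294; 41 reads) and 104 RPM (77.3 to 136; 51 reads). Each 5p product was lower in the knockdown library, though for miR-30a-5p the direction flipped under another scaling, and the intervals of the 2 libraries were apart for miR-30b-5p, miR-30c-5p and miR-30d-5p. Within each library the 5p products kept the order miR-30a, miR-30d, miR-30c, miR-30e, miR-30b, with no overlap between the intervals of neighbours.

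Among the 3p products, miR-30c-2-3p and miR-30a-3p were at one level in the control library, 1682 RPM and 1680 RPM, each taken as 318 reads with an interval of 1503 to 1877 RPM. In the knockdown library they were apart, miR-30c-2-3p with 2736 RPM (2592 to 2886) and miR-30a-3p with 1776 RPM (1660 to 1898). The value of miR-30e-3p was 138 RPM (26 reads, 89.8 to 202) in the control library and 191 RPM (94 reads, 155 to 234) in the knockdown library. The remaining products were rare. The control held 5 reads of miR-30d-3p after rounding (23.8 RPM, 8.59 to 61.7) and the knockdown 6 (12.2 RPM, 4.48 to 26.6). Of miR-30c-1-3p the control held 1 read (5.29 RPM, 0.134 to 29.5) and the knockdown 9 (18.3 RPM, 8.37 to 34.8). The absence of miR-30b-3p allows levels of up to 15.9 and 6.10 RPM, the floors of 3 reads in the control and knockdown.

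**Figure D1:**
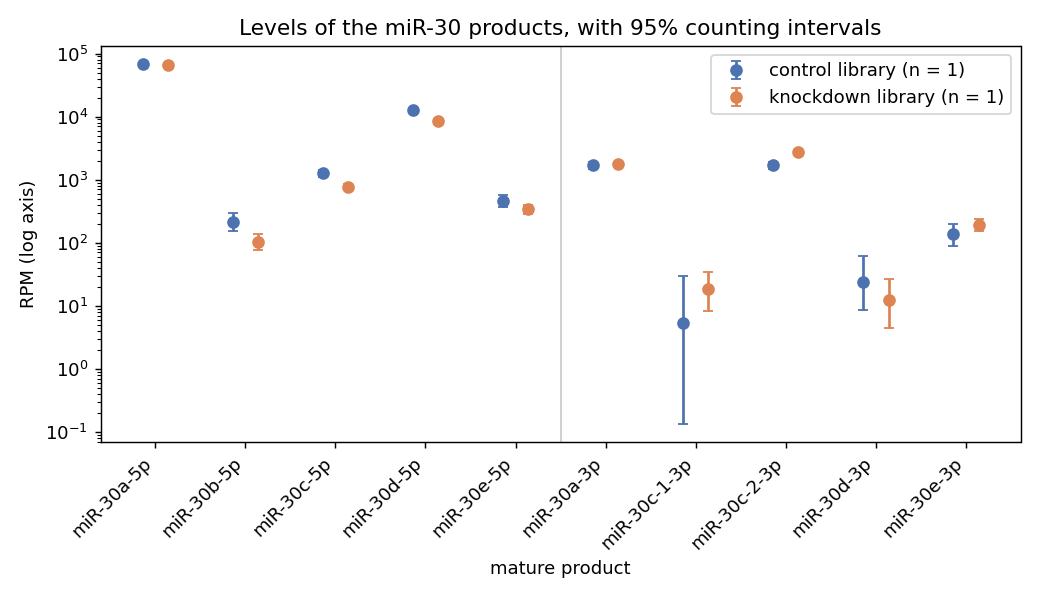
Level of each listed miR-30 product in RPM (vertical log axis) in the control and knockdown libraries, with 5p products left of the grey line and 3p products right of it; points are single libraries and bars are 95% counting intervals. miR-30a-5p lies at 67339 and 66412 RPM (a direction that flips under another scaling), the other 5p products are lower in the knockdown library, and miR-30c-2-3p goes from 1682 to 2736 RPM.

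The depth limits some of these levels, and others were not whole numbers of reads. The estimated reads of miR-30a-3p (317.5), miR-30e-5p (87.3) and miR-30d-3p (4.50) in the control, and of miR-30e-5p (166.5) and miR-30d-5p (4205.6) after knockdown, were off whole numbers by more than 0.1. So were those of miR-30a-5p (12729.3 and 32644.5), where the fitted value of 1 read is too coarse to tell. The level of miR-30e-5p, 1 base from miR-30a-5p, was 0.686% of the latter in the control and 0.510% after knockdown. That of miR-30e-3p was 8.19% and 10.8% of miR-30a-3p, and that of miR-30c-1-3p was 0.314% and 0.669% of miR-30c-2-3p. Whether misread or shared reads of the more abundant product contributed to these low levels was not tested. The same holds for miR-30d-5p and miR-30b-5p, whose sequences were not compared with that of miR-30a-5p.

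Within the family, the share of miR-30a-5p was higher in the knockdown library, 78.8% of the family RPM in the control (interval 78.2 to 79.5) and 82.1% after knockdown (81.7 to 82.4). The share of miR-30d-5p was lower, 14.8% (14.2 to 15.3) against 10.6% (10.3 to 10.9). Shares within a family do not depend on the scaling between libraries. The miR-30c arms moved in opposite directions, with miR-30c-5p at 1.47% and 0.953% and miR-30c-2-3p at 1.97% and 3.38%. Together the 3p products held 4.13% of the family in the control library (3.83 to 4.46) and 5.85% in the knockdown library (5.62 to 6.09). The share of miR-30b-5p was also lower, 0.254% (0.182 to 0.344) against 0.128% (0.0955 to 0.169). For miR-30a-5p, miR-30b-5p, miR-30c-5p, miR-30d-5p, miR-30c-2-3p and the summed 3p products, the intervals of the 2 libraries were apart. Those of miR-30e-5p, 0.541% (0.432 to 0.664) and 0.419% (0.359 to 0.488), overlapped.

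Between the libraries, the family total differed little, whereas single members differed in both directions. The log2 fold change (knockdown over control), computed on log2(RPM + 1) after both libraries were rescaled to the same total, was -0.08 for the family total (interval -0.10 to -0.05), a sign that depended on the scaling, as given below. For miR-30a-5p it was -0.02 (-0.05 to 0.01), an interval that holds 0. Without miR-30a-5p, the other 9 members summed to 18088 and 14504 RPM, a log2 fold change of -0.32 (-0.38 to -0.26). The pool that carries the 5p arm, 81898 and 76182 RPM, had a log2 fold change of -0.10 (-0.13 to -0.08), smaller in size than the shift of 0.20 that a median-of-ratios scaling gives to every ratio. The pool of the 3p arm, 3529 and 4734 RPM, had one of 0.42 (0.30 to 0.55).

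Of the 5p products, miR-30b-5p had a log2 fold change of -1.06 (interval -1.69 to -0.43) and miR-30c-5p one of -0.70 (-0.94 to -0.46). The values were -0.56 for miR-30d-5p (-0.63 to -0.49) and -0.45 for miR-30e-5p (-0.82 to -0.05). These intervals lay below 0 at equal totals, and the order of the fold changes was not the order of abundance. Of the 3p products, miR-30c-2-3p had a log2 fold change of 0.70 (0.52 to 0.88), a ratio of 1.63. Those of miR-30e-3p (0.47, interval -0.16 to 1.16) and miR-30a-3p (0.08, -0.11 to 0.27) were also positive, with intervals that held 0 at equal totals and lay above 0 with the scaling by the median ratio given below. For miR-30d-3p the log2 fold change was -0.91 (-3.09 to 0.93). For miR-30c-1-3p, with its single control read, the ratio was 3.46, with a counting interval of -1.06 to 7.25 on the log2 scale. Hence, at equal totals 5 of the 10 listed members had an interval that excluded 0, 4 of them below 0 and all of these from the 5p arm. The same count was not made over all miRNAs, and counting intervals narrow with more reads. Whether the family stands out by this count is therefore not known.

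**Figure D2:**
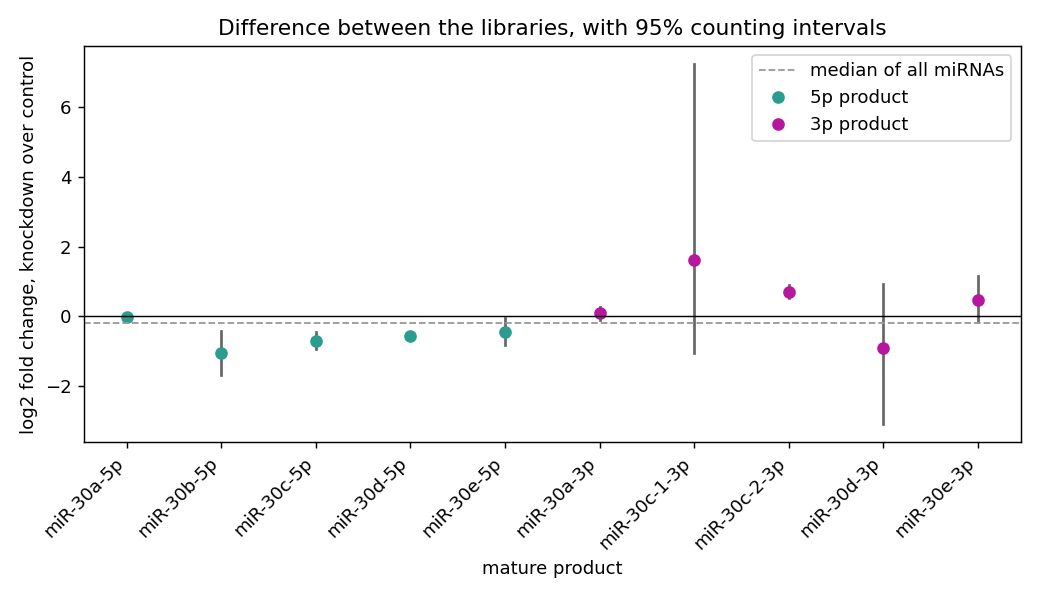
The log2 fold change of each listed product, knockdown over control, with 95% counting intervals as vertical lines; the dashed line is the median of all miRNAs (-0.20). Drawn at equal totals, the intervals of miR-30b-5p, miR-30c-5p, miR-30d-5p and miR-30e-5p lie below 0, that of miR-30c-2-3p above it, and those of miR-30c-1-3p and miR-30d-3p are wide because they rest on few reads.

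A fixed fold threshold picked few members. Beyond 2-fold, 1 of the 10 members was higher in the knockdown library (miR-30c-1-3p) and 1 was lower (miR-30b-5p), against 17.9% and 27.3% of all 425 miRNAs. With the miRNAs limited to a mean RPM of 100 or more, 0 of 8 members were higher and 1 was lower, against 2.42% and 5.65% of 124. At 1.5-fold, 2 of the 10 members were higher and 3 were lower, against 22.4% and 35.3% of all miRNAs. The median log2 fold change of the 10 members was -0.23, and that of all miRNAs was -0.20. With the limit of 100 RPM, the medians were -0.23 for the 8 members and -0.09 for the 124 miRNAs (quartiles -0.45 and 0.24).

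By rank, miR-30c-2-3p and miR-30b-5p were near opposite ends. Of the 124 miRNAs whose mean reached 100 RPM, 6 had a higher log2 fold change than miR-30c-2-3p and 6 had a lower one than miR-30b-5p. Outside the family the arms were not split in this way. Among those of the 124 miRNAs that were not members, the median log2 fold change was -0.08 for 59 products of the 5p arm (quartiles -0.42 and 0.27) and -0.20 for 45 of the 3p arm (-0.53 and 0.09). The family was taken whole, with miR-30c-1-3p (mean 11.8 RPM) and miR-30d-3p (18.0 RPM) below that limit. Its 3p products that reached the limit had values of 0.08, 0.47 and 0.70. The family medians were -0.56 for the 5 products of the 5p arm and 0.47 for the 5 of the 3p arm. These medians are a description, because the products of a family are not replicates and share hairpins and host genes.

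**Figure D3:**
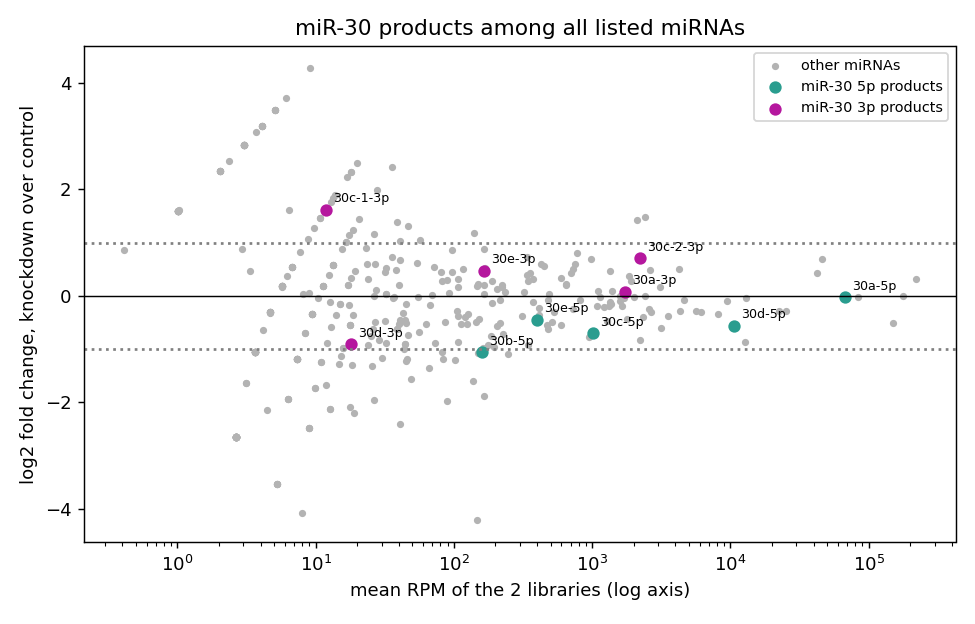
Each of the 425 listed miRNAs by its mean RPM over the 2 libraries (horizontal log axis) and its log2 fold change, knockdown over control; grey points are other miRNAs, coloured points the miR-30 products, and dotted lines mark 2-fold. Above 1000 RPM the miR-30 products lie within the 2-fold lines, and the scatter of all miRNAs widens below 100 RPM.

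The scaling between the libraries bears on the direction of the most abundant members. Scaling by the median of the ratios of miRNAs listed in both libraries raised every log2 ratio by 0.20. With it, the log2 fold change of the family total was 0.12 and that of miR-30a-5p 0.18, each with the opposite sign. Under that scaling 5 members were higher and 5 lower, in place of 4 and 6. The split was similar over all 425 miRNAs, with 180 higher and 245 lower at equal totals and a median of -0.002 under that scaling. The number of members whose interval excluded 0 was then 7, with 4 above 0 (miR-30a-5p, miR-30a-3p, miR-30c-2-3p and miR-30e-3p) and 3 below 0 (miR-30b-5p, miR-30c-5p and miR-30d-5p). The interval of miR-30e-5p then held 0 (-0.62 to 0.15), and those of miR-30a-3p (0.09 to 0.47) and miR-30e-3p (0.04 to 1.36) lay above it. The values of miR-30b-5p, miR-30c-5p, miR-30d-5p and miR-30e-5p stayed below 0 and that of miR-30c-2-3p above 0 under each scaling tried.

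The ratio of the 2 arms of a hairpin is measured within a library, so a scaling between libraries cancels. The arms of most miR-30 hairpins differed widely in level. In the control library the 5p product exceeded the 3p product 530-fold for miR-30d (interval 204 to 1472), 40.1-fold for miR-30a (35.8 to 44.9) and 3.36-fold for miR-30e (2.14 to 5.40). For miR-30b, whose 3p product had no read, the 5p product was at least 13.7-fold higher in the control when the 3p product is put at the floor of 3 reads, and this bound was larger after knockdown. The miR-30c hairpins were the exception in the family, as the 3p products together exceeded miR-30c-5p, with a 5p over 3p ratio of 0.743 (0.625 to 0.882). Nearly all of the miR-30c 3p signal was miR-30c-2-3p, from the hairpin MIR30C2. Across 26 other hairpins with both arms above 3 reads in both libraries, the median ratio was 1.37 in the control and 1.30 after knockdown.

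In the knockdown library the arm ratio of miR-30c was 0.280 (interval 0.249 to 0.314), 2.65-fold below the control value. The log2 ratio differed by -1.41 (exact conditional interval of the odds ratio -1.71 to -1.11). There were 237 reads of the 5p arm against 319 of the 3p arm in the control, and 379 against 1354 after knockdown, in libraries of unequal depth. At equal totals the log2 fold change was -0.70 for miR-30c-5p and 0.70 for miR-30c-2-3p. With 75th-percentile scaling the values were -0.42 and 0.98, so how much each arm contributed depends on the scaling. The ratio of miR-30e was 1.77 (1.37 to 2.31), a difference of -0.92 (-1.70 to -0.15) in the same direction. For miR-30a, the ratio was 37.4 (35.0 to 40.0), and the difference of -0.10 (-0.29 to 0.09) was within counting error. For miR-30d it was 701 (322 to 1911), and with 5 and 6 reads of its 3p arm the difference of 0.40 (-1.50 to 2.53) was not detectable at this depth.

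**Figure D4:**
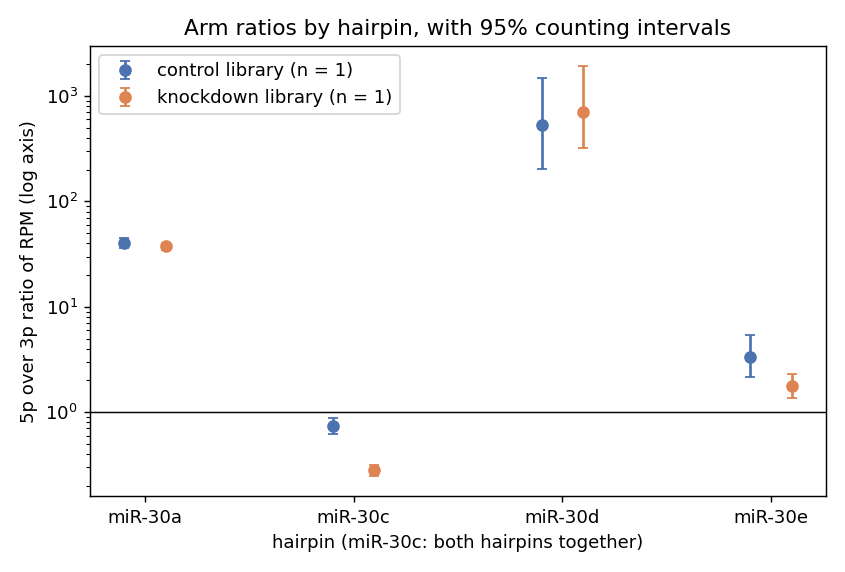
Ratio of the 5p to the 3p RPM of each miR-30 hairpin (vertical log axis) in the control and knockdown libraries, with 95% counting intervals; the line at 1 marks equal arms, and the 2 miR-30c hairpins are summed because they share their 5p product. The ratio of miR-30c goes from 0.743 to 0.280 and that of miR-30e from 3.36 to 1.77, while those of miR-30a and miR-30d overlap between the libraries.

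MIR30A and MIR30C2, the 2 hairpins within LINC00472 and AL136164.2, gave unlike values. The log2 fold change of miR-30c-2-3p was 0.70, with an interval apart from that of miR-30a-3p (0.08), and a scaling shifts both equally. Differences of the arm ratio as large as that of miR-30c also occurred outside the family. Of the 26 other hairpins, 2 had a lower difference than miR-30c and 3 a lower one than miR-30e, and the differences of all 26 ran from -1.79 to 1.75 with a median of 0.01 (quartiles -0.49 and 0.64), 13 below and 13 above 0. The place of miR-30a, with 12 hairpins below and 14 above, was in the middle. The 2 hairpins below miR-30c rested on few reads. They were miR-424 (8 and 13 control reads of the 5p and 3p arm, interval -3.54 to 0.02) and miR-151a (12 control and 13 knockdown reads of the 5p arm, -2.93 to -0.42). On the upper side miR-27a, at 1.72 (1.37 to 2.07), had 242 and 150 control reads of the 5p and 3p arm.

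**Figure D5:**
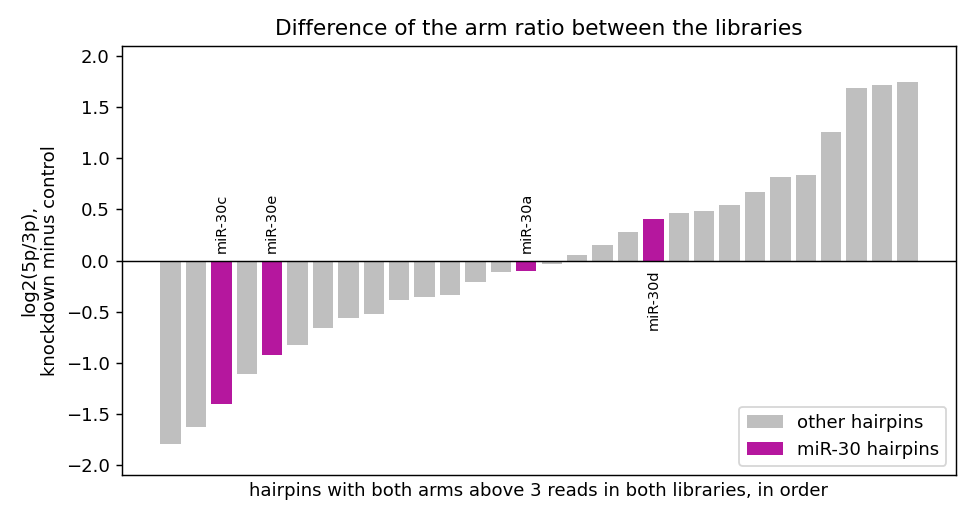
Difference of log2(5p/3p), knockdown minus control, for the 4 miR-30 hairpin groups and the 26 other hairpins with both arms above 3 reads in both libraries, in ascending order; each bar is a single hairpin or group, with 1 library per condition. The miR-30c bar is at -1.41 with 2 other hairpins below it, miR-30e is at -0.92, and miR-30a at -0.10 is near the middle. Counting intervals are not drawn, and the hairpins below miR-30c rest on few reads of an arm.

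A long non-coding RNA may carry sites for miRNAs. The 3 isoforms of LOC550643 (V1 of 718 nt, V2 of 581 nt and V3 of 476 nt) were therefore searched on the sense strand. The search used the reverse complements of the seeds printed above. No separate search was made for miR-30b-3p and miR-30d-3p, which have no sequence here. The match of the 5p seed, TGTTTAC, is in none of the isoforms, and neither is that of miR-30a-3p and miR-30e-3p, ACTGAAA. The match of miR-30c-1-3p and miR-30c-2-3p, TCTCCCA, occurs at bases 131 to 137 and 314 to 320 of V1, at the same bases of V2, and once in V3, from base 72. It is a frequent word, held by 8.24% of 116724 annotated transcripts (GENCODE 29) within their first 718 bases, against 3.20% for TGTTTAC and 6.82% for ACTGAAA. The letters shared by bases 2 to 7 alone, CTCCCA, occur once more in V1, from base 214, and those of the other seeds do not occur. The V1 sequence around both matches is printed with the match in capitals.
V1, first match: ggagatccacTCTCCCAcctggaaacg
V1, second match: gaaataaattTCTCCCAccctaaacca
V1 equals the start of transcript NBDY-201 of the gene annotated as NBDY, on chromosome X (plus strand, GRCh38). The first match is at 56729389 to 56729395, in exon 1 within the annotated coding sequence (56729354 to 56729557), and the second at 56729572 to 56729578, in exon 1 downstream of it. Paired without gaps over its 22 bases, miR-30c-2-3p has 10 complementary bases at the first match and 12 at the second, of which 3 and 5 lie among the 14 bases after the seed. A sequence match is not evidence of binding. Of the miRNAs that reached 100 RPM and were matched to a RefSeq sequence, 6 have a 7-base match in V1, miR-30c-2-3p among them. Their median log2 fold change was -0.15, with 3 of 6 above 0, and that of the 103 without one was -0.12, with 37 above 0.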

How the data were processed

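The study sequenced small RNA from both cultures 48 h after transfection. The deposited values are RPM, which the authors computed with a tool of their own, in a table per library. The submitters' processing notes name FastQC, cutadapt and hg38. The aligner, the miRNA release and any low-value filter are not given in the sources used here, and the labels and the study's methods name different library kits and sequencers. The labels give the line both as MDA-MB-231 and as its IV2 subline, and the subline was taken from the titles and the study's methods. Here the values were rescaled to 1000000 per library, missing products were set to 0, and log2 fold changes used a pseudocount of 1 RPM, which understates changes at low values. The RPM worth 1 read was fitted to the values up to 20 reads within 0.1 read of a whole number. Of these low values, 92.9% (control, 253 values) and 91.5% (knockdown, 224 values) were whole, so no count test was run and rounded reads served for intervals only. Arm intervals were exact conditional intervals of the odds ratio, and other hairpins were paired by identical name stems. The study names no threshold for miRNAs; 2-fold is the one it gives for its microarray. The named miRNAs were all products of the family, the neighbours of miR-30a-5p in rank, the 3 miRNAs of at least 1000 RPM nearest to the family total in log2 fold change, 4 other families and marker miRNAs. The members and lists were chosen with earlier results of these data known. The alternatives covered scaling, pseudocount, threshold, filter and arms. The procedure was tested on simulated data. Python 3.11.15, numpy 2.4.6, scipy 1.17.1 and matplotlib 3.10.9 were used.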

Additional observations from a re-analysis of the deposited data

How the results depend on the processing

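No paired analysis was possible because the design has no replicates. The log2 fold change of the family total (-0.08) changed sign under median-of-ratios scaling (0.12) and under 75th-percentile scaling (0.20). It stayed within its counting interval with the values as deposited, with pseudocounts of 0.1 and 10 RPM and with the 5p products alone. Beyond the threshold, 1 member was higher. That number was 0 with a pseudocount of 10 RPM, among members of 100 RPM or more on average and among those above 3 reads in both libraries, and 2 at 1.5-fold. The number of lower members, 1, was 0 with median-of-ratios size factors, with 75th-percentile scaling and with a pseudocount of 10 RPM, and 3 at 1.5-fold. Over the 5p products alone, miR-30a-5p held 82.2% (control) and 87.2% (knockdown), since a smaller total is divided. The arm ratios of the 4 hairpin groups kept their direction and stayed within their intervals with a pseudocount and with whole reads. Of 50 member log2 fold changes under 5 alternatives, 9 left their counting interval. The number of members whose interval excluded 0 was 5 at equal totals and 7 under both median-of-ratios and 75th-percentile scaling. No such count over all miRNAs was made. Products under about 20 reads in a library, miR-30c-1-3p and miR-30d-3p, are limited by depth.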

Other observations

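In both libraries the miR-30 total was below those of the let-7 and miR-148 families and above those of the miR-29 and miR-181 families. The let-7 products with miR-98, 17 listed, summed to 131791 RPM (control) and 123365 RPM (knockdown), a log2 fold change of -0.10 (interval -0.12 to -0.07). The 5 products of miR-148 and miR-152 summed to 199754 and 247911 RPM, with a log2 fold change of 0.31 (0.29 to 0.33). The miR-29 products (1804 and 1581 RPM) and the miR-181 products (1524 and 1444 RPM) were far less abundant, and their log2 fold changes were -0.19 (-0.38 to -0.01) and -0.08 (-0.28 to 0.13).

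The miRNAs of at least 1000 RPM outside the family whose log2 fold change was nearest to that of the miR-30 total, over 2 libraries, were miR-378a-3p (-0.08), miR-99b-5p (-0.09) and miR-423-3p (-0.09). At the lower end of the arm ratio differences were miR-424 (-1.79, interval -3.54 to 0.02), miR-151a (-1.63, -2.93 to -0.42) and miR-132 (-1.12, -3.75 to 1.42). At the upper end were miR-330 (1.69, -0.31 to 3.82), miR-27a (1.72, 1.37 to 2.07) and miR-532 (1.75, -0.05 to 3.71). All were named after their values were seen. Only the intervals of miR-151a and miR-27a exclude 0, and all but miR-27a had few reads of an arm. The level of miR-30c-2-3p relative to miR-30c-5p was 1.34 and 3.55 in the control and knockdown, and that of miR-30a-5p relative to miR-30d-5p was 5.33 and 7.76.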
